A study of Homo sapiens with 12 samples.

Results

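The respiratory chain subunit genes comprised 98 of the 57187 rows of the count table, chosen by gene symbol: the 13 protein-coding genes of the mitochondrial genome (*MT-ND*, *MT-CO*, *MT-CYB* and *MT-ATP* symbols) and 85 nuclear genes of the *NDUF*, *SDH*, *UQCR*, *COX* and *ATP5* families. RNA sequencing had been done on 12 libraries, 1 for each of 3 versions of 4 established human cancer cell lines: the breast cancer lines MDA-MB-231 and HCC1954 and the ovarian cancer lines OVCAR8 and SKOV3. The versions were parental cells, labelled with no treatment (the study's supplement also calls them empty vector, so that which of these they were is unclear), cells transfected with wild-type *SIVA* (*SIVA-WT*), and cells transfected with *SIVA-D160N*, a *SIVA* copy carrying the D160N change. The study describes the transfectants as stable, carrying the insert under a CMV promoter with hygromycin selection, and those of HCC1954, SKOV3 and OVCAR8 as polyclonal, and all cells were grown in RPMI-1640 with serum. A line in a version was therefore a single library, and the comparisons below take the 4 lines as replicates of a version, or the 3 versions as replicates of a line.

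The respiratory chain passes electrons from NADH and succinate to oxygen through complexes I to IV in the inner mitochondrial membrane, and ATP synthase (complex V) uses the proton gradient this builds to make ATP. Complexes I, III, IV and V are assembled from subunits encoded in both genomes, whereas all subunits of complex II (succinate dehydrogenase) are nuclear. The mitochondrial subunits are transcribed as long polycistronic RNAs and translated inside the organelle, while the nuclear ones are made in the cytosol and imported, so that the levels of both sets have to be matched.

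Of the mitochondrial members, 7 belonged to complex I, 1 to complex III, 3 to complex IV and 2 to complex V. The nuclear members held 37 rows of complex I, 4 of complex II, 8 of complex III, 17 of complex IV and 15 of complex V. A further 4 rows matched the symbols without being subunits, namely *ATP5S* (coupling factor B, also named *DMAC2L*), *ATP5SL* (a complex I assembly factor, also named *DMAC2*), *ATP5J2LP* (a pseudogene) and *ATP5L2* (a copy of the subunit g gene). In all, 93 of the 98 members had enough counts for testing among 17211 genes, including all 13 mitochondrial ones. The 5 that did not were *COX4I2* and *COX6A2*, tissue-restricted isoforms of complex IV, *ATP5J2LP*, *ATP5L2* and the smaller of 2 rows named *NDUFA7*.

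Total counts per library ran from 35791455 to 45890398, and 3 counts corresponded to between 0.0663 and 0.085 CPM (counts scaled to 1000000 per library). The transfected gene *SIVA1* was higher in both transfectants than in the parental library in 4 of 4 lines, at 28.1, 80.7 and 68.2 CPM (parental, *SIVA-WT*, *SIVA-D160N*) in MDA-MB-231 and at 0, 38.2 and 26.6 CPM in HCC1954. It was at 66.3, 177 and 161 CPM in OVCAR8 and at 52.6, 106 and 112 CPM in SKOV3. Gene counts do not tell the wild-type from the mutated copy. Tissue markers were mixed. *ERBB2*, known to be amplified in HCC1954 and SKOV3, averaged 7552 and 8998 CPM there and 34.7 and 74.1 CPM in MDA-MB-231 and OVCAR8. *PAX8*, a marker of ovarian and Müllerian epithelium, was higher in OVCAR8 and SKOV3 (68.3 and 239 CPM) than in the breast lines (at most 2.95 CPM). *WT1*, another ovarian marker, was at 6.65 CPM in HCC1954, 6.41 in OVCAR8 and 0.726 in SKOV3, and *GATA3*, a breast marker, was lower in MDA-MB-231 (2.19) than in OVCAR8 (5.96).

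The mitochondrial members took 3.29% to 5.07% of all counts of a library and the nuclear members 0.690% to 1.08%. The 13 mitochondrial genes held 4.44 to 5.35 times the counts of the 85 nuclear ones in all 12 libraries. The ratio averaged 4.81 ± 0.149 for MDA-MB-231, 4.75 ± 0.345 for HCC1954, 4.91 ± 0.381 for OVCAR8 and 4.90 ± 0.354 for SKOV3 (mean ± SD, n = 3 libraries of different versions). The 4 line means lay within the spread of the libraries of any line. SKOV3 held the smallest share of both sets, 3.59% ± 0.324 mitochondrial and 0.732% ± 0.0379 nuclear, against 4.23% ± 0.130 and 0.882% ± 0.0539 in MDA-MB-231, which came next. The mitochondrial large ribosomal RNA, *MT-RNR2*, which is encoded upstream of these genes on the same strand as most of them, ranged more widely, from 1454 CPM in OVCAR8 *SIVA-WT* to 6883 CPM in parental MDA-MB-231; poly(A) selection was used for these libraries.

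**Figure D1:**
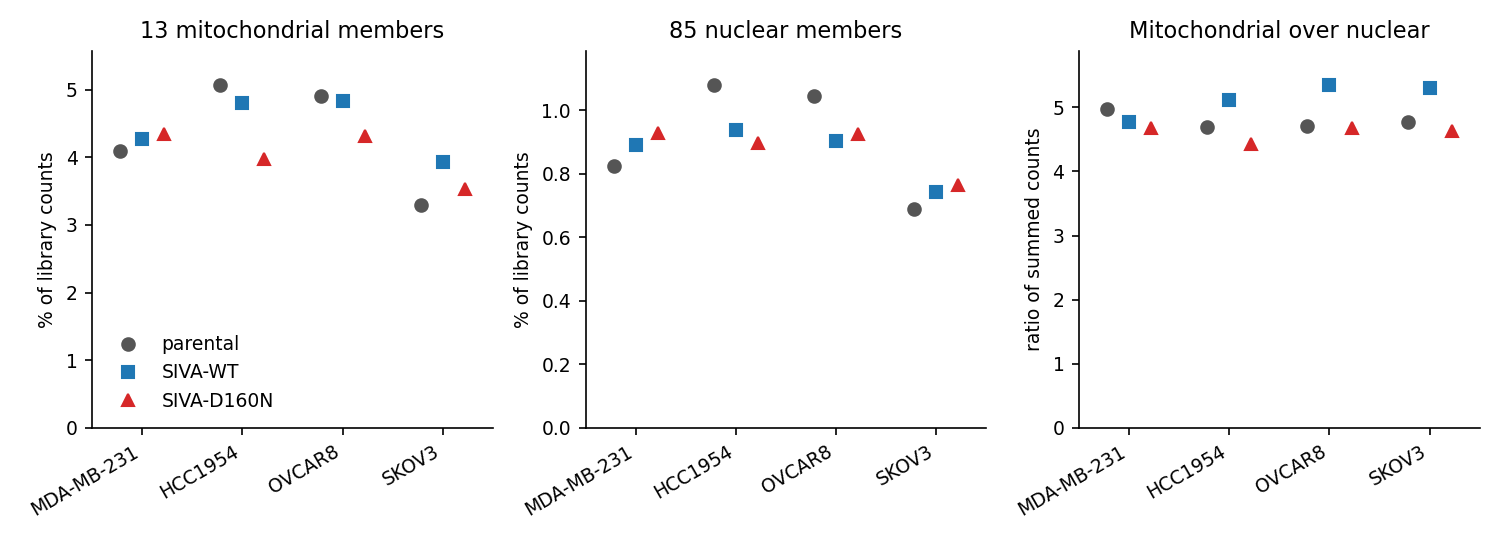
Share of each library's counts taken by the 13 mitochondrial members (left, %) and the 85 nuclear members (middle, %), and the ratio of the summed counts (right), for 4 cell lines; each point is 1 library and the symbol gives its version. The shares differ between lines and versions, whereas the ratio stays between 4.44 and 5.35.

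Counts per kilobase of the canonical transcript put the 2 genomes on a common scale of level. The median over the 12 libraries was 2593 CPM per kb for the median mitochondrial member and 76.6 CPM per kb for the median of the 80 nuclear members tested. The highest mitochondrial member was *MT-CO2*, a copper-binding core subunit of cytochrome c oxidase, at 8123 CPM per kb, and the lowest was *MT-ND6*, the only member on the light strand, at 400.1 CPM per kb. Among nuclear members, *ATP5B* (the catalytic beta subunit of ATP synthase, 516.6 CPM per kb), *COX4I1* (the ubiquitous subunit 4 isoform of complex IV, 503.7) and *UQCRH* (the hinge protein of complex III, 402.4) were highest. The lowest mitochondrial member was thus at a level reached by 3 of the 80 nuclear genes. Whether poly(A) selection recovered all members alike, *MT-ND6* included, was not tested.

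Some nuclear levels were low beside a read-counting limit. In 6 tested members at least 60% of the canonical transcript lies under another annotated gene on the same strand (*NDUFV2*, *NDUFA13*, *NDUFA7*, *NDUFB8*, *NDUFA11* and *ATP5O*), and these had a median of 5.18 CPM per kb against 79.6 for the other 74. How reads shared by overlapping genes were counted is not given in the sources used here. The genes that overlap *NDUFV2*, *NDUFB8*, *NDUFA11* and *ATP5O* had 0 counts in the 12 libraries together. Those that overlap *NDUFA13* and *NDUFA7* had 233 and 10. *NDUFV2*, a core subunit of complex I that carries an iron-sulfur cluster, had only 38 to 96 counts per library, and these 6 genes are therefore not read as levels below.

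The first question was how the members differ between lines, each line being set against the mean of the other 3 (edgeR quasi-likelihood test with version in the model, Benjamini-Hochberg adjusted p under 0.05 and a log2 difference of at least 1). In MDA-MB-231, 9 of 93 members were called, against 33.1% of all genes tested. The counts were 8 in HCC1954 (36.7% of all genes), 8 in OVCAR8 (34.3%) and 9 in SKOV3 (34.6%). The members called were thus 8.6% to 9.68% of those tested in each line. The line means lay within 2-fold of each other for 11 of the 13 mitochondrial members and for 41 of the 80 nuclear members, against 26.1% of all genes tested. Among genes with mean counts between the quartiles of the nuclear members, that share was 42.1%, closer to the 51.2% of the nuclear members. The steadiest members were *NDUFB3*, an accessory subunit of complex I, whose line means ran from 41.5 to 44.2 CPM, and *UQCRC1*, a core protein of complex III, from 243.3 to 262.6 CPM.

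**Figure D2:**
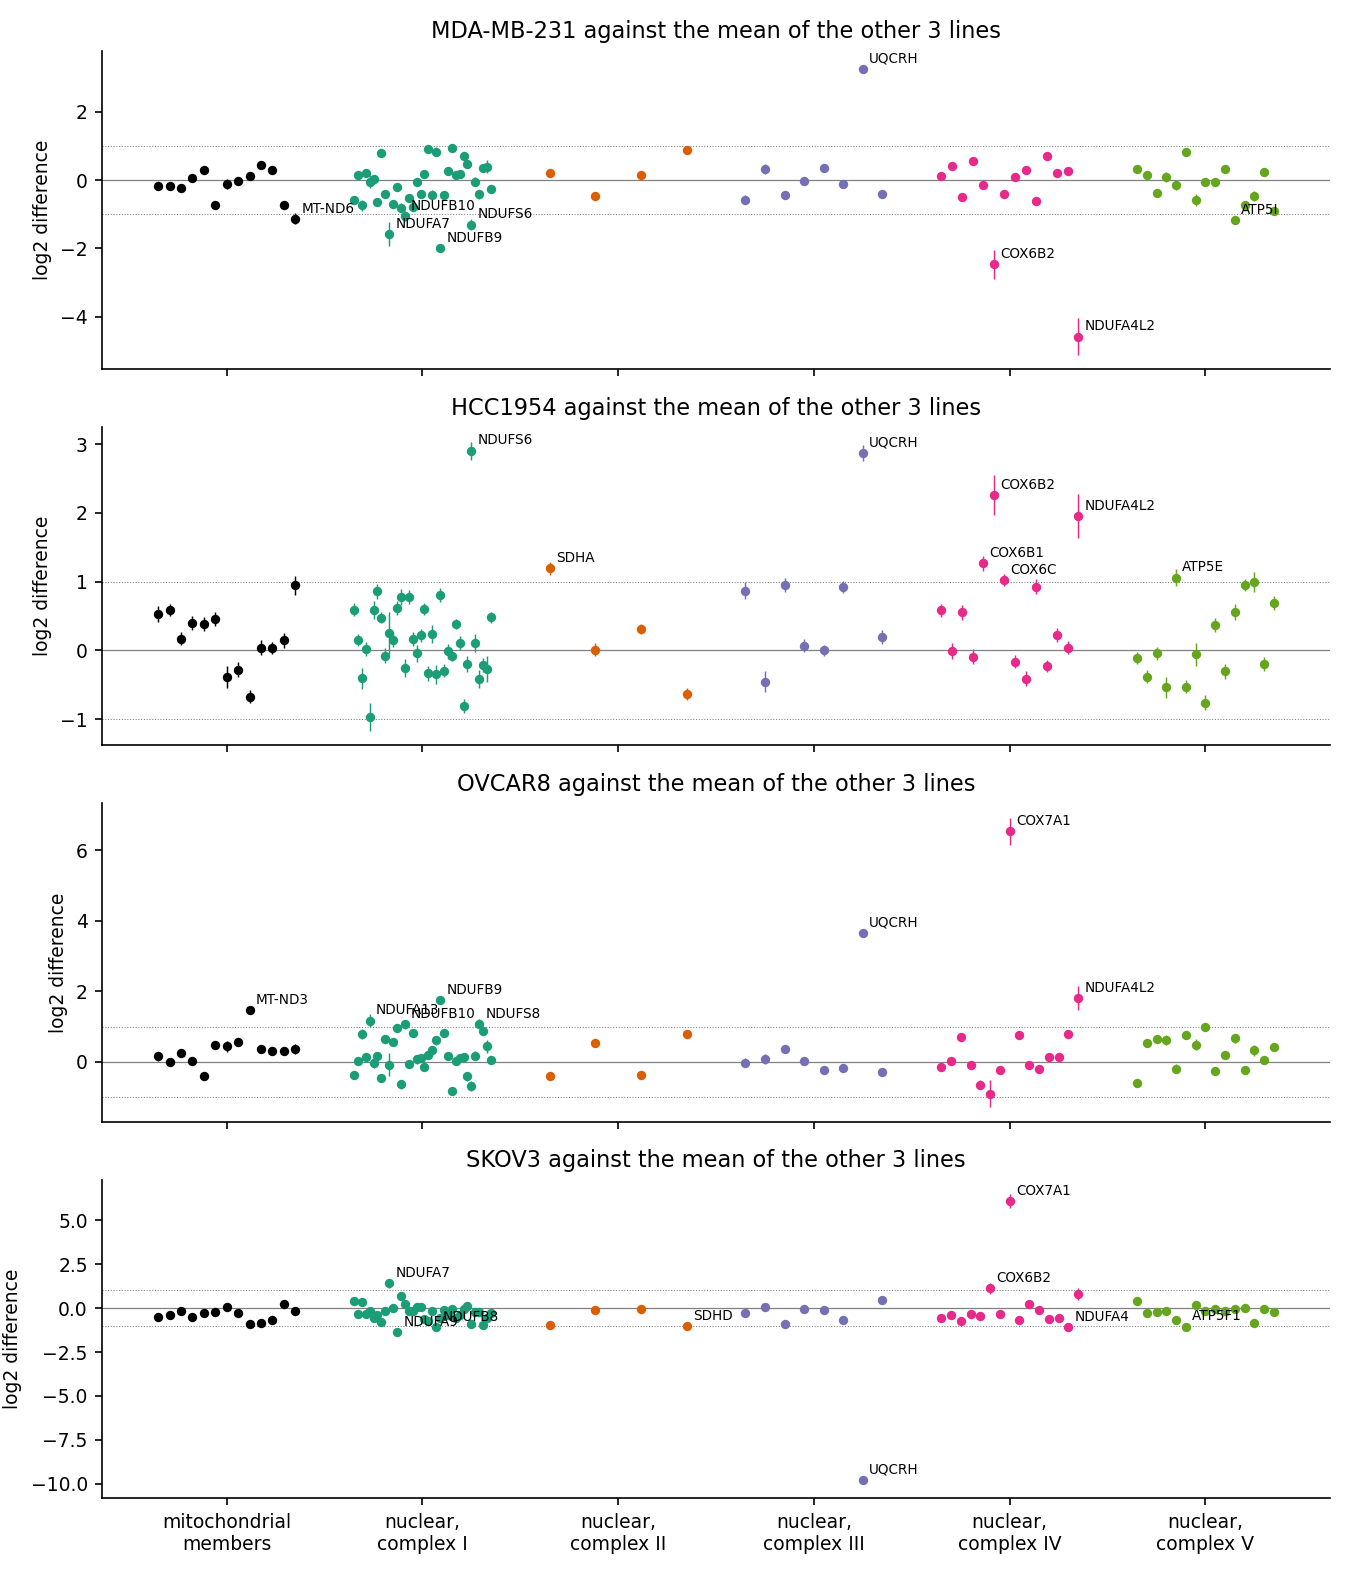
Log2 difference of each tested subunit gene in 1 line against the mean of the other 3 (edgeR estimate ± SE, 3 libraries against 9), by genome and complex; dotted lines mark a difference of 1, and called members are named. *COX7A1*, with 0 counts in MDA-MB-231 and HCC1954, is left out of their panels because its estimate has no bound there, and the y axes differ between panels.

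The largest difference between lines was the near absence of *UQCRH* (chr1:46303698-46316776, GRCh38.p14, RefSeq, plus strand) in SKOV3. *UQCRH* had 8, 13 and 12 counts in the parental, *SIVA-WT* and *SIVA-D160N* libraries of SKOV3. The 9 libraries of the other lines held 6514 to 12303 counts. In CPM, the SKOV3 libraries were at 0.212, 0.291 and 0.296, and the others averaged 242 ± 51.0 (SD, n = 9), so that the level was 910 times lower in SKOV3 (log2 difference -9.78 ± 0.21 SE, adjusted p = 4.94e-11, edgeR). Of 549 genes that reached the lowest *UQCRH* level of the other lines (175 CPM) in all 9 of their libraries, 1 was at or below 0.296 CPM in all 3 SKOV3 libraries, and this was *UQCRH* itself. Both limits were values of *UQCRH*, so it passed by construction and any less extreme gene was left out.

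The genes around it were read after this value was seen. *LRRC41*, a leucine-rich repeat gene that starts head to head with *UQCRH* on the other strand, 81 bases away (chr1:46277462-46303616), had 0, 0 and 1 counts in SKOV3 and 2178 to 3596 in the other lines. Neighbouring genes on either side were expressed in SKOV3, with 1346 to 1735 counts of *RAD54L*, which overlaps the far end of *LRRC41*, and 1384 to 1588 counts of *NSUN4*. *UQCRHL*, a copy of *UQCRH* elsewhere on chromosome 1, had 0 to 1 counts in SKOV3 and 346 to 593 in the other lines, and reads of the 2 copies can be assigned to either. The loss of counts thus covered both genes that share this start region and not their neighbours. The deposited gene counts do not tell a DNA change from silenced transcription, and neither was tested. Complex III's other 7 nuclear members were all detected in SKOV3, for example *UQCRC1* at 243.3 CPM.

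**Figure D3:**
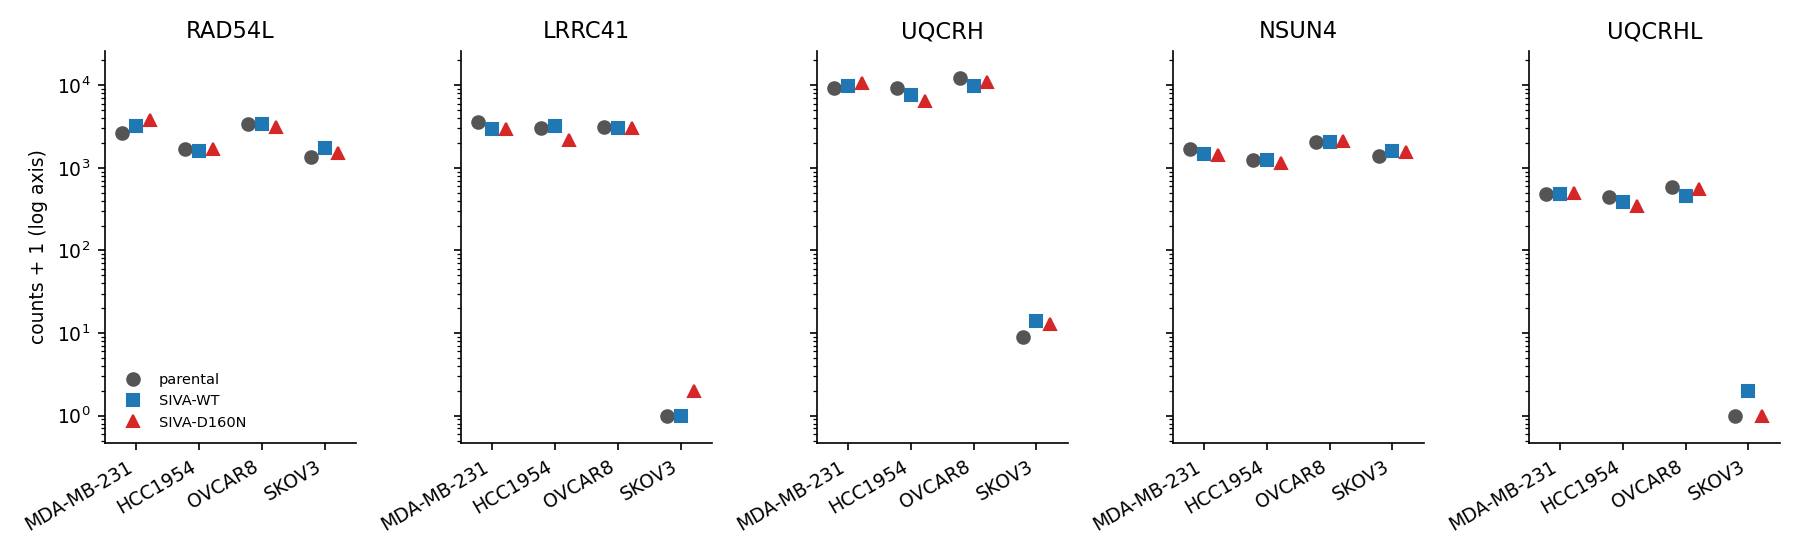
Counts plus 1 (log axis) of *UQCRH*, its neighbours *RAD54L*, *LRRC41* and *NSUN4* and its copy *UQCRHL* in the 12 libraries; each point is 1 library. In SKOV3, *UQCRH*, *LRRC41* and *UQCRHL* have at most 13 counts, whereas *RAD54L* and *NSUN4* have over 1000 in every library.

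The region shared by *UQCRH* and *LRRC41* is shown because it holds both starts. It runs from chr1:46303448 to chr1:46303727 on the plus strand of GRCh38.p14 (RefSeq), 250 bases before to 30 bases from the *UQCRH* start at position 251, and *LRRC41* starts at position 169 on the minus strand. Capitals mark the letters CCGGAAGT, a core binding motif of the ETS family that includes GABP, found here on the minus strand at positions 204 to 211, between the 2 starts.
UQCRH: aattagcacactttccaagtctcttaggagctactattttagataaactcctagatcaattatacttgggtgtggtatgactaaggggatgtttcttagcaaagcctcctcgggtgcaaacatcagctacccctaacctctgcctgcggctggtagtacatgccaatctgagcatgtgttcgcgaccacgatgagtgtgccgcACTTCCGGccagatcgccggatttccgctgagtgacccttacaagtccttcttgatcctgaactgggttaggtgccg

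Such motifs were counted in the 300-base RefSeq windows (250 bases before to 50 after a gene's start) of the 67 of 84 nuclear member symbols with a window. On both strands, the NRF1 letters (GCGC, any base, then TGCGC) were present in 15 of 67 windows (22.4%) and in 6.28% of all 27305 gene windows. CCGGAAGT (GABP) was present in 9 (13.4%, all windows 4.44%) and AAGATGGCG (YY1) in 8 (11.9%, all windows 1.85%). These are transcription factors known for nuclear respiratory genes, and a match is a description of letters only.

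*UQCRH* also weighed on the other lines, because their reference mean included SKOV3. Against it, *UQCRH* was called higher in MDA-MB-231, HCC1954 and OVCAR8, by 3.24, 2.87 and 3.66 on the log2 scale. In a fit without the SKOV3 libraries, chosen after this was seen, the differences were -0.01, -0.45 and 0.46, and none passed the size threshold. These 3 calls therefore rest on SKOV3. In that fit, 10, 9 and 10 of 93 members were called in MDA-MB-231, HCC1954 and OVCAR8, against 36.3%, 41% and 36.8% of 18313 genes.

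HCC1954 stood out by genes of complexes I and II on the short arm of chromosome 5. *NDUFS6* (chr5:1801407-1816048), a zinc-binding complex I subunit needed late in its assembly, was at 427, 354 and 376 CPM in parental, *SIVA-WT* and *SIVA-D160N* HCC1954. In the other 9 libraries it ran from 36.4 to 69.1 CPM, with no overlap. The mean was 7.41 times that of the other libraries (log2 difference 2.91 ± 0.13 SE, adjusted p = 5.12e-09, edgeR). *SDHA* (chr5:218320-268746), the flavoprotein of succinate dehydrogenase, was at 491, 402 and 390 CPM in HCC1954 against 124 to 261 CPM elsewhere, again without overlap (2.22 times, log2 difference 1.19 ± 0.09 SE, adjusted p = 4.27e-07, edgeR). Without SKOV3 in the reference, the difference of *SDHA* was 0.958, under the size threshold (adjusted p = 1.17e-05, edgeR), while that of *NDUFS6* was 2.91. The other *SDH* genes differed less: *SDHC*, a membrane anchor, averaged 150.5 CPM in HCC1954 and 104.5 to 138 CPM elsewhere (log2 difference 0.32 ± 0.07 SE, adjusted p = 0.00225, edgeR, under the size threshold), *SDHB*, the iron-sulfur subunit, averaged 99.2 CPM in HCC1954 and 77.7 to 130.3 CPM in the other lines, and *SDHD*, the other membrane anchor, 50.4 CPM against 41.4 to 110 CPM.

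The 2 genes start 1583087 bases apart, and the genes between and around them were read after these values were seen. Of the 19 other tested genes that start in the first 2 Mb of chromosome 5, 15 were at least 2-fold higher in HCC1954 than the mean of the other lines, against 19.5% of all genes tested, with a median log2 difference of 2.99. *MRPL36*, a mitochondrial ribosomal protein gene beside *NDUFS6*, differed by 3.08 on this scale. DNA copy number was not measured here.

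The windows of the 2 genes are shown because they differ in the motifs counted above (GRCh38.p14, plus strand, 250 bases before to 30 bases from the start; capitals mark the NRF1 letters on the minus strand). *SDHA* (chr5:218070-218349) holds 4 matches spaced 49 bases apart, and *NDUFS6* (chr5:1801157-1801436) holds none of the 3 motifs in full.
SDHA: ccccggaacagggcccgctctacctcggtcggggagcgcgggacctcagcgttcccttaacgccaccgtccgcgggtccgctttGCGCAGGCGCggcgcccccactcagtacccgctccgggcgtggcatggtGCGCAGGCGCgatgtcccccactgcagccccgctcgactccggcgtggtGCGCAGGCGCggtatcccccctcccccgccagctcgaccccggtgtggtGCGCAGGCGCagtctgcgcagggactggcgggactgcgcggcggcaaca
NDUFS6: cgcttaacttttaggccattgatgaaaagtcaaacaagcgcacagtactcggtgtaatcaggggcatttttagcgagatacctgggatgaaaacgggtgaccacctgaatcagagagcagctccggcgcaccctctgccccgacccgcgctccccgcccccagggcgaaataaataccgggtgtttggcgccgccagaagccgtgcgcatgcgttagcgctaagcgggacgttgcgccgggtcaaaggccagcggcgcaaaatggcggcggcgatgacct

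HCC1954 further had the highest *COX6B1*, which helps to join complex IV into dimers, at 260, 213 and 200 CPM against 73.9 to 120 CPM in the other 9 libraries (log2 difference 1.27 ± 0.11 SE, adjusted p = 1.19e-06, edgeR). *COX6C*, another complex IV subunit, and *ATP5E*, the epsilon subunit of ATP synthase, were also called higher, by 1.02 and 1.06. In the fit without SKOV3, *COX6C* and *ATP5E* were under the size threshold (0.996 and 0.905). No member was called lower in HCC1954 in the fit with all lines (0 of 93, against 15.8% of all genes), but without SKOV3, *SDHD* (-1.11), *MT-ND3* (-1.11) and *NDUFA13* (-1.16) were (adjusted p = 7.6e-06, 6.21e-06 and 0.00138, edgeR). *NDUFA13* is one of the overlapped genes named above and had 39 to 159 counts per library, so its difference is not read as one of level.

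*NDUFB9*, an accessory subunit of the membrane arm of complex I encoded on chromosome 8, set MDA-MB-231 and OVCAR8 apart. It was at 50.4, 48.4 and 51.5 CPM in MDA-MB-231, below all other libraries. In OVCAR8 it was at 413, 316 and 326 CPM, above all other libraries. HCC1954 (216 ± 31.9) and SKOV3 (105 ± 9.03) lay between (mean ± SD, n = 3), so that the line means spanned 7.02-fold. Both ends were called, at -1.99 ± 0.11 SE in MDA-MB-231 (adjusted p = 6.51e-08) and 1.75 ± 0.09 SE in OVCAR8 (adjusted p = 2.94e-08, edgeR). *NDUFB10*, a neighbour in the same arm, was also called lower in MDA-MB-231 and higher in OVCAR8, at means of 39.7 and 118 CPM. Other calls in these lines included *ATP5I*, subunit e of ATP synthase, at -1.17 in MDA-MB-231, *NDUFS8*, an iron-sulfur subunit of complex I, higher in OVCAR8 by 1.08, and low-count or overlapped genes (*COX6B2*, *NDUFA7*, *NDUFA13*). *NDUFS6* was also called lower in MDA-MB-231, where its reference includes the high HCC1954 libraries.

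SKOV3 was below the mean of the other lines for most of the set. Of the 80 nuclear members, 62 were lower and 18 higher than the mean of the other lines, with a median log2 difference of -0.24 against 0.06 for all genes tested (8143 of 17211 lower), and 11 of the 13 mitochondrial members were lower (median -0.28). This was not particular to the set. Medians were -0.48 for mitochondrial ribosomal protein genes (60 of 77 lower), -0.46 for assembly factors (37 of 47) and -0.31 for the citric acid cycle (11 of 13). For genes of mitochondrial DNA expression and upkeep the median was -0.46 (19 of 25 lower). Besides *UQCRH*, the members called lower were *NDUFA9* (a complex I subunit that stabilises the junction of its arms), *NDUFA4* (a complex IV subunit in spite of its name), *SDHD* and *ATP5F1* (the stator subunit b of ATP synthase), plus *NDUFB8*, one of the 6 overlapped genes. Called higher were *COX7A1*, described with the isoforms, *NDUFA7* (1.40) and *COX6B2* (1.11), which have low counts. *NDUFA9* was at 5.46, 5.69 and 6.67 CPM in SKOV3 and at 10.4 to 20.8 CPM in the other libraries, without overlap (log2 difference -1.38 ± 0.12 SE, adjusted p = 1.15e-06, edgeR). Of its 8356-base canonical transcript, 11.7% lies under other annotated genes on the same strand, and the effect on its counts was not tested. *NDUFA4* was at 71.3, 77.3 and 82.4 CPM in SKOV3 against 121 to 228 CPM elsewhere. Without the 4 parental libraries, *ATP5F1*, *COX6B2*, *NDUFA4* and *SDHD* fell under the size threshold (log2 differences of -0.986, 0.779, -0.997 and -0.945) and 5 members were called in SKOV3.

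**Figure D4:**
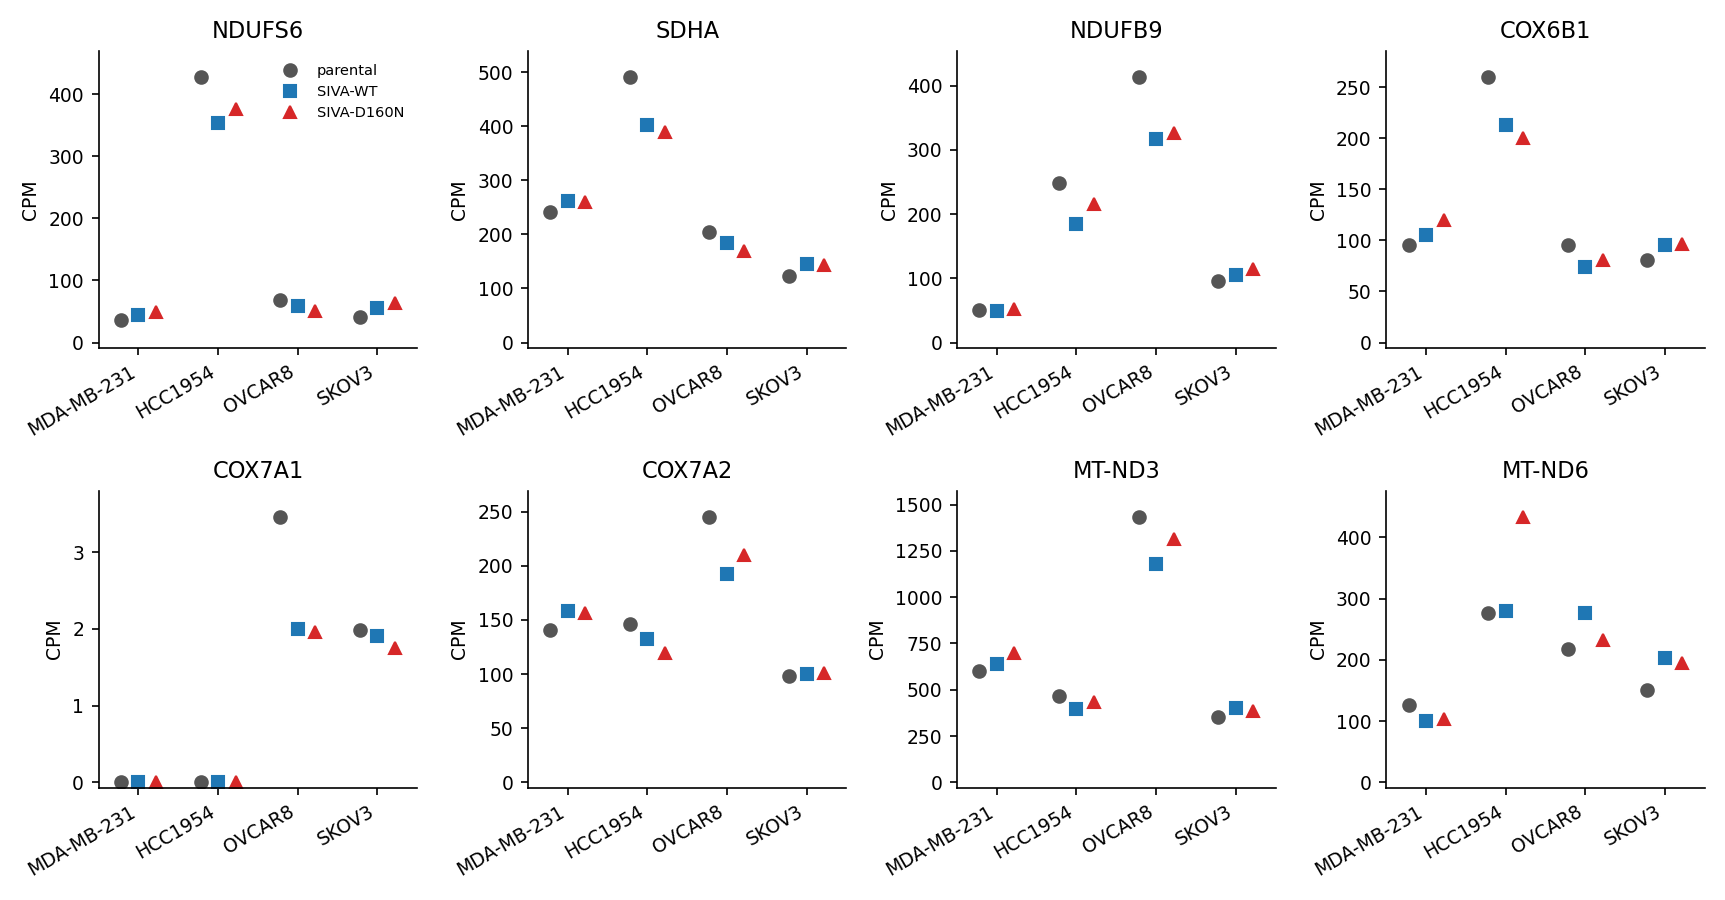
CPM (TMM-scaled, linear axis from 0) of 8 members in the 12 libraries; each point is 1 library. *NDUFS6*, *SDHA* and *COX6B1* are highest in HCC1954, *NDUFB9*, *COX7A2* and *MT-ND3* in OVCAR8, and *COX7A1* is at 0 in both breast cancer lines.

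Tissue isoforms were compared by their RNA counts only, as protein was not measured. Complex IV carries alternative isoforms made in muscle, lung or testis beside the ubiquitous ones. *COX7A1*, the heart and muscle isoform, had 0 counts in all 6 MDA-MB-231 and HCC1954 libraries and 71 to 126 counts in the 6 OVCAR8 and SKOV3 libraries. It averaged 2.47 CPM in OVCAR8 and 1.88 CPM in SKOV3, at least 33.7-fold and 25.6-fold above the limit that 3 counts per library set in the breast cancer lines. Its ubiquitous partner *COX7A2* ran from 98.5 to 245 CPM and was highest in OVCAR8 (193 to 245 CPM), above all other libraries, and *COX7A2L*, a supercomplex assembly factor of this family, from 71.5 to 139 CPM.

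The other restricted isoforms were nearly silent. *COX4I2*, the lung isoform of subunit 4, had 1 count over all 12 libraries, while *COX4I1* ran from 254 to 573 CPM. *COX6A2*, the muscle isoform of subunit 6A, reached at most 8 counts, all but 1 of its 18 counts being in OVCAR8, and *COX6A1* ran from 32.4 to 63.2 CPM. Of the *COX6A1* canonical transcript, 32.6% lies under another annotated gene on the same strand, and the effect on its counts was not tested. *COX6B2*, a testis isoform, had 36 to 41 counts in HCC1954 libraries and 2 to 4 in those of MDA-MB-231. *NDUFA4L2*, a paralog of *NDUFA4* induced by hypoxia, had 0 to 1 counts in MDA-MB-231 and 5 to 34 in the other lines, and its calls in HCC1954 and OVCAR8 rest on that low reference.

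Subunit c of ATP synthase, which forms the rotating ring, is encoded by 3 genes that give the same mature protein. On the scale of counts per base, *ATP5G2* made up the most of their sum in all 12 libraries, 39.9% to 65.6%. *ATP5G3* made up 8.65% to 9.52% in OVCAR8 and 14.7% to 22.9% elsewhere, and *ATP5G1* 19.8% to 37.2%. This ranking rests on canonical lengths of 632 bases for *ATP5G2* and 2587 for *ATP5G3*. Without it, mean CPM of *ATP5G3* and *ATP5G2* were 202 and 179 in MDA-MB-231, 250 and 124 in HCC1954, and 200 and 166 in SKOV3. Only in OVCAR8 was *ATP5G2* higher (180 and 309). In MDA-MB-231 the share of *ATP5G1* was 19.8% in the parental library and 26% and 28% in the *SIVA-WT* and *SIVA-D160N* libraries.

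The mitochondrial members differed between lines in their proportions, although they come from shared transcripts. *MT-ND3*, a small membrane subunit of complex I, was at 1432, 1178 and 1315 CPM in parental, *SIVA-WT* and *SIVA-D160N* OVCAR8. In the other lines it ran from 352.8 to 701 CPM, with no overlap (log2 difference 1.47 ± 0.08 SE, adjusted p = 5.84e-08, edgeR). *MT-ND6*, read from the other strand, was at 127, 100 and 103 CPM in MDA-MB-231, below all other libraries (150 to 433 CPM; log2 difference -1.13 ± 0.16 SE, adjusted p = 7.86e-05, edgeR). These were the 2 mitochondrial members called.

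The rest stayed within a log2 difference of 1 of the other lines. In SKOV3, *MT-ND4* and *MT-ND4L*, neighbours on 1 bicistronic messenger, were lower by 0.85 ± 0.12 and 0.66 ± 0.09 SE (adjusted p = 5.68e-05 and 5.48e-05, edgeR), and *MT-ND4* was at 4133, 5615 and 5292 CPM there against 6796 to 10210 CPM elsewhere. *MT-CYB*, the only mitochondrial subunit of complex III, and *MT-ND5* were lower in MDA-MB-231, by 0.73 and 0.72. The core gene *MT-CO1* of cytochrome c oxidase differed least of the 13, with line means of 8776 to 11180 CPM. Line means of *MT-CO2* ran from 4214 to 6812 CPM and those of *MT-CO3*, the remaining core gene, from 4126 to 6210 CPM. Line means of *MT-ATP6*, the proton channel of ATP synthase, were 2375 to 4101 CPM. Those of *MT-ATP8*, whose reading frame overlaps it, were 295 to 490 CPM. Line means of *MT-ND1* were 1424 to 2169 CPM and those of *MT-ND2* 2044 to 3177 CPM, both highest in OVCAR8.

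Nuclear copies of mitochondrial genes can take or lend reads. Of 177 such pseudogene rows, 2 reached 1000 counts in a library. *MTND2P28*, a copy of *MT-ND2*, averaged 664 CPM in OVCAR8 and 38.6 to 45.4 CPM in the other lines, and *MTATP6P1*, a copy of *MT-ATP6*, 334 to 659 CPM. *MT-ND2* was highest in OVCAR8 too, and the part of the copy in this was not tested.

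The second question was what wild-type or mutated *SIVA* did to the set across lines. In the fit with line in the model, 0 of 93 members were called in any of the 3 comparisons of versions (adjusted p under 0.05 and a log2 difference of at least 1.5, edgeR), and the share over all genes was 0.00581% for *SIVA-D160N* against parental and 0% for the other comparisons. DESeq2 and limma-voom also called 0 members. No gene at all was called for *SIVA-WT* against parental, so the transfected *SIVA1*, higher in every line, was not called either. The absence of calls among the members is therefore weak evidence that they did not change. At the same thresholds, the study's supplement reports many more genes for *SIVA-D160N* against parental than the 1 called here. The supplement does not name the terms of its model. At an unadjusted p under 0.05, edgeR gave 1 member in each comparison, against 14.2% of all genes for *SIVA-D160N* against parental, 2.54% for *SIVA-WT* against parental and 6.88% for *SIVA-D160N* against *SIVA-WT*.

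That member was *NDUFA4L2* in the comparisons with *SIVA-D160N* against parental (log2 difference -1.22 ± 0.36 SE, adjusted p = 0.209, edgeR) and against *SIVA-WT* (-1.31 ± 0.35 SE, adjusted p = 0.719, edgeR). It rested on few counts: parental and *SIVA-D160N* libraries had 28 and 9 in HCC1954, 22 and 12 in OVCAR8, 15 and 5 in SKOV3, and 1 and 1 in MDA-MB-231. For *SIVA-WT* against parental it was *MT-ND4L*, higher in 4 of 4 lines (log2 difference 0.23 ± 0.09 SE, adjusted p = 1, edgeR). Whether the response to *SIVA-D160N* differed between ovarian and breast lines was tested as an interaction: 0 members passed an adjusted p under 0.05 (0.00581% of all genes), and 1 passed unadjusted (all genes 5.06%), which was *COX7A2L* (difference of log2 responses 0.50 ± 0.20 SE, adjusted p = 0.965, edgeR).

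Within lines, the nuclear members moved together but not in the same direction in every line. In HCC1954, 73 of the 80 were lower with *SIVA-WT* than in the parental library and 74 with *SIVA-D160N*, against 48.6% and 49.5% of all genes. In OVCAR8, 73 were lower with each transfectant (all genes 48.8% and 52.3%). In MDA-MB-231, 61 were higher with *SIVA-WT* and 65 with *SIVA-D160N* (all genes 46.7% and 47.2%), and in SKOV3, 67 and 70 were higher (all genes 49.7% and 48.8%). The changes were small: the median log2 ratios to parental for *SIVA-WT* and *SIVA-D160N* were -0.27 and -0.27 for HCC1954, -0.29 and -0.24 for OVCAR8, 0.09 and 0.14 for MDA-MB-231, and 0.17 and 0.23 for SKOV3. Each ratio compares single libraries, so that it has no replicate check, and both ratios of a line share its parental library.

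**Figure D5:**
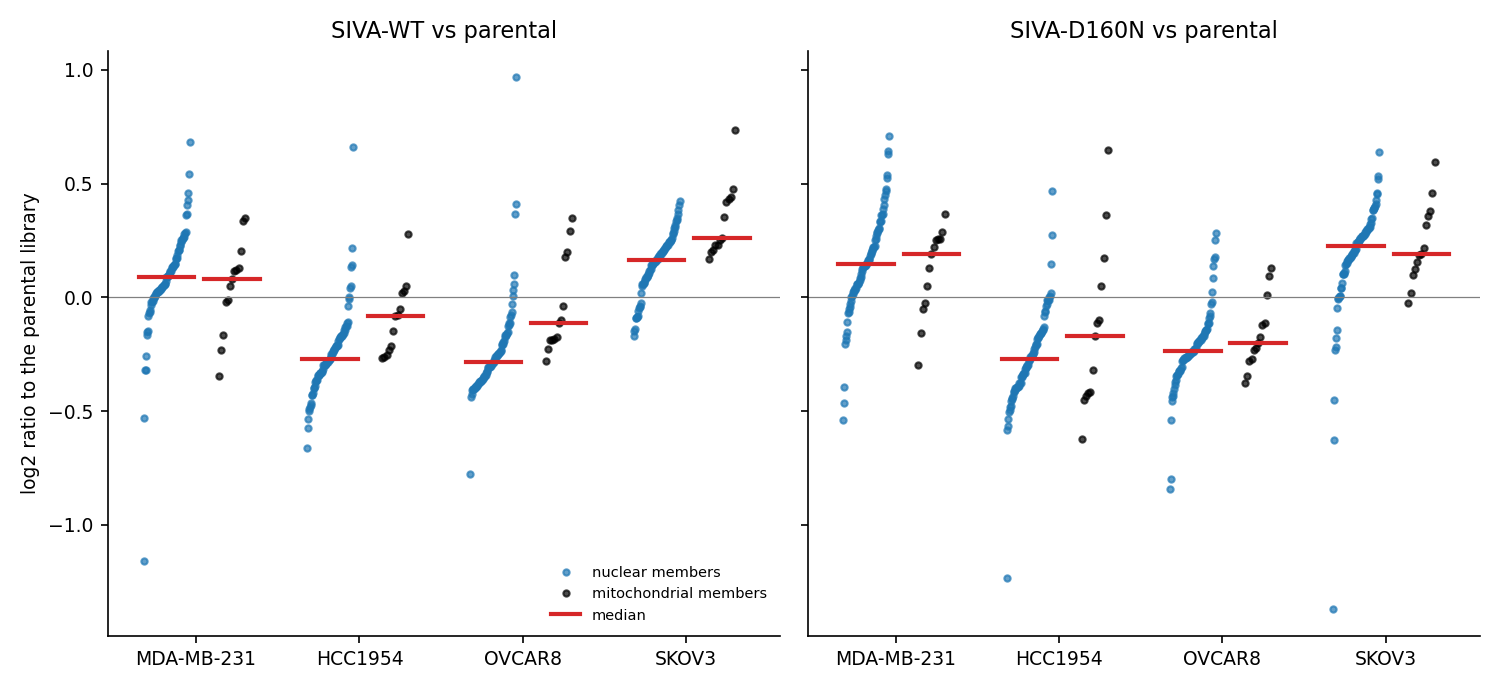
Log2 ratio of each tested member to the parental library of the same line for *SIVA-WT* (left) and *SIVA-D160N* (right); blue points are the 80 nuclear members, black points the 13 mitochondrial members, red bars their medians. Nuclear medians are below 0 in HCC1954 and OVCAR8 and above 0 in MDA-MB-231 and SKOV3.

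By complex, the uniformity differed between lines. In HCC1954 and OVCAR8, all 8 nuclear members of complex III and all 15 of complex V were lower than parental with either transfectant. *ATP5B* went from 795 CPM in parental HCC1954 to 659 with *SIVA-WT* and 775 with *SIVA-D160N*, and from 1309 in parental OVCAR8 to 1103 and 1161. In SKOV3 it went the other way, from 693 to 778 and 868 CPM. Over complex I, 33 and 34 of 36 were lower with *SIVA-WT* and *SIVA-D160N* in HCC1954, and 31 and 32 were higher in SKOV3. In MDA-MB-231 with *SIVA-WT*, 26 of 36 members of complex I, 6 of 8 of complex III and 13 of 15 of complex V were higher. Complex IV was less uniform within these lines, with 12 and 13 of 15 lower in HCC1954 and 11 higher in SKOV3 with either transfectant. In the fit across lines, however, all 15 complex IV members were lower with *SIVA-D160N* than in the parental libraries (median log2 difference -0.115). With *SIVA-WT*, 13 of 15 complex IV members (-0.0877) and all 15 of complex V (-0.0937) were lower in that fit. Of the 4 *SDH* genes, 3 were lower with either transfectant in HCC1954 and 2 with *SIVA-D160N* in OVCAR8.

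As a result, the parental libraries held the extremes. The nuclear share ran from 0.690% in SKOV3 to 1.08% in HCC1954 among parental libraries, from 0.742% to 0.939% with *SIVA-WT*, and from 0.764% to 0.930% with *SIVA-D160N*. Fewer nuclear members than genes overall kept 1 sign in 4 of 4 lines: 0 of 80 for *SIVA-WT* against parental (all genes 9.34%) and 1 for *SIVA-D160N* against parental (all genes 15.2%), which was *NDUFS1*, the largest core subunit of complex I (log2 difference 0.07 ± 0.08 SE, adjusted p = 0.712, edgeR). Between the transfectants the count was 23 of 80, or 28.7%, near the 22.9% of all genes. The lowest unadjusted p among those 23 belonged to *ATP5J* (coupling factor 6 of ATP synthase), *NDUFB2* and *SDHB*, each higher with *SIVA-D160N* by 0.15 to 0.16 (adjusted p = 0.786 to 0.796, edgeR), and, on the lower side, to *NDUFV2*, *NDUFA3* and *SDHA* (adjusted p = 0.904 to 0.953).

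Other gene groups moved with the nuclear members to differing extents. The 77 mitochondrial ribosomal protein genes were lower than parental with *SIVA-WT* in HCC1954 (73) and OVCAR8 (77) and higher in MDA-MB-231 (59) and SKOV3 (64), as the nuclear members were. With *SIVA-D160N* in HCC1954 they parted, with 40 of 77 ribosomal genes lower against 74 of 80 nuclear members. The 84 cytosolic ribosomal protein genes, a list added after seeing these values, were lower in 81 cases with *SIVA-WT* in both HCC1954 and OVCAR8, but also in 56 cases in MDA-MB-231, where the nuclear members were higher. Genes of like abundance (4233 genes with mean counts between the quartiles of the nuclear members) were lower in 55.7% and 51.9% of cases with *SIVA-WT* in HCC1954 and OVCAR8. These genes were matched to the nuclear members by abundance and not by transcript length, so a shift shared by short transcripts would not show in them. The part of library preparation, growth state or cell density in these shifts cannot be told apart from the version, with 1 library each.

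The mitochondrial members followed the nuclear ones less closely. In SKOV3, 13 and 12 of 13 were higher than parental with *SIVA-WT* and *SIVA-D160N*, and in OVCAR8, 9 and 10 were lower. In HCC1954 9 were lower with each, but with *SIVA-D160N* they spread widely: *MT-CO2* had 8213, 6884 and 5339 CPM in the parental, *SIVA-WT* and *SIVA-D160N* libraries, while *MT-ND6* had 276, 280 and 433 CPM and *MT-ND1* 1286, 1332 and 1654 CPM. *MT-RNR2* fell in step with neither set in MDA-MB-231, at 6883, 3920 and 2844 CPM.

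The log2 ratio of mitochondrial to nuclear counts, for which no test was run, moved by at most 0.21 within a line. *SIVA-D160N* had a lower ratio than *SIVA-WT* in 4 of 4 lines, by -0.03 in MDA-MB-231 and by -0.21, -0.19 and -0.20 in HCC1954, OVCAR8 and SKOV3 (mean -0.16 ± 0.08 SD, n = 4 lines). Against parental, *SIVA-WT* differed by 0.10 ± 0.11 (higher in 3 of 4 lines) and *SIVA-D160N* by -0.06 ± 0.04 (lower in 4 of 4 lines). Taken over single members, as the difference of their medians, *SIVA-D160N* was instead above parental, by 0.05 ± 0.05. With 4 lines, an exact two-sided sign-flip test could not go below p = 0.125.

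Genes that build and express the system were read from fixed lists. None of 47 tested assembly factors, 25 genes of mitochondrial DNA expression and upkeep, 13 genes of the citric acid cycle or 8 transcriptional regulators was called between versions in edgeR. In the fit across lines, 74 of 77 mitochondrial ribosomal genes and 22 of 25 expression and upkeep genes were higher with *SIVA-D160N* than with *SIVA-WT* (medians 0.15 and 0.16 on the log2 scale), beside 56 of the 80 nuclear members (0.03), 4 of the 13 mitochondrial ones (-0.06) and 8498 of all 17211 genes. Against parental in the same fit, 69 of the 80 nuclear members were lower with *SIVA-WT* (median -0.08) and 55 with *SIVA-D160N* (-0.04). Of all 17211 genes, 8883 and 8900 were lower. Between lines, *TFAM*, the packaging protein and transcription factor of mitochondrial DNA, averaged 234 CPM in MDA-MB-231 and 70.7 to 113 CPM in the others. Line means of *NRF1* ran from 23 to 24.5 CPM. Line means of other regulators ranged more widely, such as *GABPA* (26.8 to 47.9 CPM), *ESRRA* (25.6 to 77.1 CPM) and *PPRC1* (50.7 to 140.5 CPM). In HCC1954, 3 of the 8 regulators were called, 2 of them higher, a share near the 36.7% of all genes called there.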

How the data were processed

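Per the labels and the study's methods, stranded mRNA libraries were sequenced as paired ends and aligned to GRCh38 with STAR (2.5.3a in the submitters' processing notes), and the authors deposited gene counts from STAR without normalization. The deposited CPM table was not used. Each of the 12 count columns was matched to a library by name, and 0 columns were left without one.

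Counts went into edgeR 4.0.16 under R 4.3.3 (filterByExpr, TMM, glmQLFit and glmQLFTest) with line and version as terms, the line pairing the versions: deviations of same-line libraries correlated at 0.929 to 0.968. DESeq2 1.42.0 and limma 3.58.1 were alternatives. CPM are counts scaled to 1000000 of the TMM-adjusted total, and within-line ratios add a prior count of 2. Nothing says that libraries came from separate cultures, so p-values measure the spread between these libraries. Floors of 3 counts cover counting error only. The fit was tested on simulated data. Lengths are of canonical transcripts in a GENCODE annotation lifted to another build (matched by gene ID), and positions are RefSeq GRCh38.p14.

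The members, lists and tests were chosen with earlier results of these data known. Named genes were all mitochondrial members, *SIVA1*, isoform sets, *SDH* genes, untested members, up to 3 nuclear members per direction with 1 sign in 4 lines by p, and up to 3 per direction and line by size; others were named after their values were seen.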

Additional observations from a re-analysis of the deposited data

Results flagged for a closer look

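A library far from the other 3 of its version was seen in 12 of 111 groups of 4 libraries examined on the log2 CPM scale or on the summed measures. The genes examined were the mitochondrial members and the nuclear members already called between lines in these data. The 4 libraries of a group are also different lines. The usual chance rate of about 1 in 20 therefore does not apply to this count. *UQCRH* stood apart in SKOV3 in all versions (0.212, 0.291 and 0.296 CPM in parental, *SIVA-WT* and *SIVA-D160N*). *NDUFS6* stood apart in HCC1954 with *SIVA-WT* and *SIVA-D160N* (354 and 376 CPM), as did *COX6C* (260.0 and 254 CPM), and *COX6B1* in parental HCC1954 (260 CPM). Among mitochondrial members, *MT-ND2* stood apart in parental OVCAR8 (3447 CPM), *MT-ND5* in parental MDA-MB-231 (1398 CPM) and *MT-ND4L* in SKOV3 *SIVA-WT* (531.0 CPM). The change of the log2 ratio from *SIVA-WT* to *SIVA-D160N* was nearer 0 in MDA-MB-231 (-0.032) than in the other 3 lines.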

How the results depend on the processing

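In the comparisons of versions, 0 members were called under every alternative run: RLE size factors, TMM without mitochondrial genes, all genes with a count, DESeq2, limma-voom, no fold threshold, each line left out in turn (0 to 0), and a fit without the line as replicate block (0). The interaction gave 0 in limma-voom as well. The main fit called at most 1 of 17211 genes in these comparisons, so the zeros are a weak check. In the line comparisons, 263 of 272 values of the 34 single calls under the alternatives that keep all 4 lines passed the threshold, 9 fell below it in the same direction and 0 reversed. Of these 9, 8 came without the parental libraries (*NDUFB10* in MDA-MB-231 and OVCAR8, *ATP5E* and *COX6C* in HCC1954, and *ATP5F1*, *COX6B2*, *NDUFA4* and *SDHD* in SKOV3), where the count in SKOV3 was 5, and 1 came with all genes with a count (*COX6C* in HCC1954). At a log2 difference of at least 1.5, the counts were 5 (MDA-MB-231), 4 (HCC1954), 4 (OVCAR8) and 2 (SKOV3). Without the SKOV3 libraries, *UQCRH* reversed to -0.0066 in MDA-MB-231 and -0.45 in HCC1954 and fell below the threshold in OVCAR8 (0.46), and *SDHA*, *COX6C* and *ATP5E* in HCC1954 fell below it (0.958, 0.996 and 0.905); the other calls of these 3 lines passed it. The change of the log2 mitochondrial to nuclear ratio for *SIVA-D160N* against parental was 0.053 as the difference of medians, and leaving out each line it ran from -0.07 to -0.04; for *SIVA-WT* against parental the range was 0.07 to 0.15, and for *SIVA-D160N* against *SIVA-WT* -0.20 to -0.14. Counts of nuclear members by direction within lines stayed within 1.5 times under the scaling and overlap alternatives, which were chosen after seeing the data.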
